A study of Homo sapiens with 4 samples.

Results

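Integrin subunits are the chains of the paired receptors through which cells hold on to the extracellular matrix. The account covers 10 of their genes, ITGA2, ITGA3, ITGA5, ITGA6, ITGAV, ITGB1, ITGB3, ITGB4, ITGB5 and ITGB8, taken from a fixed list by gene symbol and not by their values, out of 36525 genes in the table. All 10 were found. The study silenced hnRNPM, an RNA-binding protein that controls alternative splicing, in LM2 cells, a clonal lung metastatic derivative of the mesenchymal human breast cancer line MDA-MB-231. There were 2 hnRNPM knockdown libraries and 2 control libraries, all of total RNA from cells harvested 48 h after plating in serum-containing medium. The silencing agent is called an shRNA in one label and an siRNA in others, and what the control cells received is not stated further. The libraries come from 1 clonal line, and no label says that those of a group were separate cultures. The p-values thus reflect only how these 4 libraries vary, and that variation may be technical.

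An integrin is a dimer of 1 alpha and 1 beta chain. The alpha chain largely sets which matrix protein is bound. The tail of most beta chains, though not of all, recruits talin and kindlin, which link the receptor to actin. The beta 1 chain pairs with many alpha chains, among them alpha 2 (a collagen receptor), alpha 3 and alpha 6 (laminin receptors), alpha 5 (the fibronectin receptor) and alpha v. The alpha v chain also pairs with beta 3, beta 5 and beta 8 to bind RGD-containing proteins such as vitronectin and latent TGF-beta, and alpha 6 also pairs with beta 4, the laminin receptor of hemidesmosomes.

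Levels are RPKM, reads scaled by the length of the gene model and by a read total, as the authors deposited them. HNRNPM, the silenced gene, was at 11.5 and 12.95 RPKM in the knockdown libraries, against 88.6 and 102 RPKM in the control libraries. Estimated reads were 16.5 M and 18.3 M in the knockdown libraries and 23.0 M and 26.6 M in the control libraries. The steps between low values correspond to 1 read total per group (29.7 M for knockdown and 41.9 M for control), so differences in depth between the libraries of a group may remain in the values. The summed RPKM was higher in replicate 2 than in replicate 1 in both groups. The 5 markers of the line (VIM, CD44, AXL, MSN, CAV1) summed to between 1063 and 1185 RPKM in knockdown libraries and between 1097 and 1274 RPKM in control libraries. VIM had the highest level, and the markers did not move as one. CAV1 was 1.51-fold higher after knockdown and passed the test described further on. VIM, CD44 and MSN were 1.18-fold, 1.26-fold and 1.11-fold lower, without overlap between the groups, and did not pass. AXL overlapped between the groups. The 4 markers expected to be low (CDH1, EPCAM, ESR1, PGR) summed to between 1.85 and 2.20 RPKM in knockdown libraries and between 1.00 and 1.35 RPKM in control libraries, with PGR listed at 0 throughout. Among these, CDH1, the E-cadherin gene, was at 0.717 and 0.99 RPKM in knockdown and 0.0774 and 0.0629 RPKM in control libraries, 12.2-fold higher and below the filter for testing, while EPCAM overlapped between the groups (1.11 and 1.18 against 1.25 and 0.91 RPKM). The part of CDH1 in the integrin results was not tested. Of 4 markers of blood, endothelium, liver and lung epithelium, 3 were in the table and together reached at most 0.0581 RPKM in any library.

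The start regions of the 4 members that passed the test described further on are shown because those genes moved in both directions. Each is the 250 bases upstream of the RefSeq start (GRCh38.p14) that lies nearest to the start of the principal transcript in GENCODE 29, written 5′ to 3′ on the gene's strand, with the GC box GGGCGG on either strand in capitals. The regions are chr2:186589806-186590055 on the plus strand for ITGAV, chr5:52989102-52989351 on the plus strand for ITGA2, chr2:172427336-172427585 on the plus strand for ITGA6 and chr3:124887366-124887615 on the minus strand for ITGB5. RefSeq lists 2 starts for ITGAV, 1 for ITGA2, 2 for ITGA6 and 3 for ITGB5.
ITGAV: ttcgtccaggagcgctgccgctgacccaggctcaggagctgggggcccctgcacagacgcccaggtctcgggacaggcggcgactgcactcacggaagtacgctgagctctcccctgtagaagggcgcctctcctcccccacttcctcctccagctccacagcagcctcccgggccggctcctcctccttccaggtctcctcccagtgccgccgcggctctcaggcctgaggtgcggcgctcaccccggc
ITGA2: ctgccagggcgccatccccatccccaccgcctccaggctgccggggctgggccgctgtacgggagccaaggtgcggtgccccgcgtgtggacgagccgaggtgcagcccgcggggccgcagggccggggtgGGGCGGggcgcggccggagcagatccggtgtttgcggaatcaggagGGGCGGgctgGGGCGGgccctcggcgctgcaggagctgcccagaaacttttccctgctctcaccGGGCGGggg
ITGA6: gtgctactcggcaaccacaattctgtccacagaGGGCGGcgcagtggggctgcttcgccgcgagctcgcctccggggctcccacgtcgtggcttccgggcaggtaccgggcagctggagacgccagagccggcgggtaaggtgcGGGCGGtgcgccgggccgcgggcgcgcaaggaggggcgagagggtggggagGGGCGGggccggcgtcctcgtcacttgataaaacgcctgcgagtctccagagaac
ITGB5: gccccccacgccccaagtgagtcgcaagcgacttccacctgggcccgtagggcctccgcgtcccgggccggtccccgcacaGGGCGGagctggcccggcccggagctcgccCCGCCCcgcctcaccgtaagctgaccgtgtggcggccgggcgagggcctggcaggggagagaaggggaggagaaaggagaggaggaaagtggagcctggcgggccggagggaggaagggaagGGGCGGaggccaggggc

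The ITGAV window held 0 GC boxes, the ITGA2 window 4, the ITGA6 window 3 and the ITGB5 window 3. Windows of members without a call, not shown, held 3 (ITGB1), 2 (ITGB8) and 1 (ITGA5). Of 35116 RefSeq windows of the same length, 42.6% held at least 1. ITGB1 did not pass but lay higher in both knockdown libraries than in either control library. A link between GC boxes and direction was not tested. The AP-1 motif TGANTCA and the letters TATAAA occurred 0 times in all 4 windows on either strand, against 6.57% and 10.7% of all windows. The 4 windows were 70.8% (ITGAV), 76.4% (ITGA2), 71.6% (ITGA6) and 75.2% (ITGB5) G and C, against a median of 58% over all windows. A match of letters is a description and not a binding site. Of the 10 members, 7 had an entry, and ITGA3, ITGB3 and ITGB4 are named only.

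The 10 subunits covered a wide range of levels, in much the same order in both groups. ITGA3 was the highest, at 171 and 192 RPKM in knockdown libraries and 148 and 172 RPKM in control libraries, followed by ITGB1. ITGA6 and ITGB4 came next, and their ranges overlapped in the knockdown libraries (38.4 and 42.9 against 37.1 and 40.6 RPKM) but not in the control libraries (53.7 and 62.4 against 37.4 and 42.9 RPKM). Below them, ITGAV followed in knockdown cells, above ITGA5 and ITGB5. In control cells ITGAV lay below ITGA5 and ITGB5 and overlapped ITGA2, and the ranges of ITGB5 and ITGA5 also overlapped. ITGB3 and ITGB8 were the lowest in both groups. The plot of RPKM by library shows these levels.

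**Figure D1:**
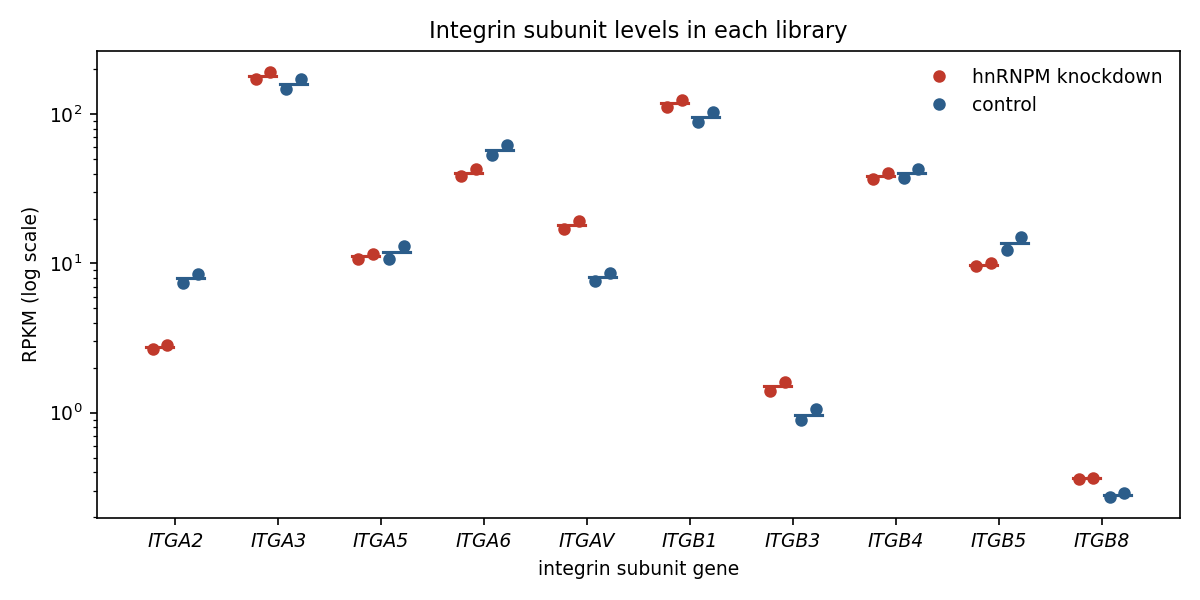
RPKM on a log axis for the 10 integrin subunit genes, with 1 point per library and a bar at the mean of the 2 libraries of a group, hnRNPM knockdown left of control. ITGAV, ITGB1, ITGB3 and ITGB8 are higher and ITGA2, ITGA6 and ITGB5 are lower in both knockdown libraries than in either control library. ITGB1 and ITGB3 did not pass the test on the values as deposited, and ITGB8 was not tested.

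After hnRNPM knockdown, the alpha v gene was 2.24-fold higher and the alpha 2 gene 2.91-fold lower, while the 2 most abundant subunits, ITGA3 and ITGB1, were 1.14-fold and 1.23-fold higher and did not pass. Of the 10 members, 9 had a mean of at least 1 RPKM and were tested, and ITGB8 lay below that filter. Of these 9, 1 rose (ITGAV), 3 fell (ITGA2, ITGA6, ITGB5) and 5 did not pass (limma on log2(RPKM + 0.5), Benjamini-Hochberg adjusted over 13627 genes, threshold 0.05). Among all 13627 tested genes 14.7% were called higher and 21.8% lower, 36.4% in all, so the 4 calls among 9 members are near the background. The median log2 fold change was −0.04 over the 9 members and −0.07 over all tested genes. The 2 groups did not overlap in 6 of the 9, against 66.8% of all tested genes: 3 lay higher after knockdown (28.0% of all genes) and 3 lower (38.8%).

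ITGAV (ENSG00000138448), the alpha chain shared by the RGD-binding integrins, was at 17.0 and 19.2 RPKM in knockdown libraries, against 7.62 and 8.60 RPKM in control libraries. Both knockdown libraries were above both control libraries, by a wide margin. The mean was 18.1 ± 1.52 RPKM after knockdown and 8.11 ± 0.693 RPKM in control (SD, n = 2 each), with a log2 fold change of 1.11 ± 0.18 (SE; limma adjusted p = 4.25e-09). It was the 325th highest log2 fold change of 13627. The call held in each of the 4 fits that left out 1 library (limma adjusted p from 0.00126 to 0.0157). Without the filter on low values the call was lost (limma adjusted p = 0.0531), in a fit that called 262 genes higher and 255 lower; ITGA2 passed there (0.0493) and ITGA6 and ITGB5 did not (0.123 and 0.15).

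ITGA2 (ENSG00000164171), the alpha chain of the collagen receptor, was at 2.65 and 2.83 RPKM in knockdown libraries and at 7.40 and 8.56 RPKM in control libraries. These values correspond to 622 and 665 reads in knockdown and 2451 and 2835 reads in control libraries at the estimated read totals. The 2 groups lay far apart: the mean was 2.74 ± 0.13 RPKM after knockdown and 7.98 ± 0.819 RPKM in control (SD, n = 2 each). On the log2 scale it fell by 1.38 ± 0.18 (SE; limma adjusted p = 1.38e-13), the 214th lowest of 13627. It too passed in each of the 4 fits that left out 1 library (limma adjusted p from 2.36e-05 to 0.00651).

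ITGA6 (ENSG00000091409), the laminin-binding alpha chain, was at 38.4 and 42.9 RPKM in knockdown libraries and at 53.7 and 62.4 RPKM in control libraries. The groups did not overlap. The mean was 40.6 ± 3.14 RPKM after knockdown and 58.0 ± 6.17 RPKM in control (SD, n = 2 each), 1.43-fold lower (log2 fold change −0.51 ± 0.17, SE; limma adjusted p = 0.0121). The call was lost in each fit without 1 of the 4 libraries: adjusted p = 0.436 without knockdown replicate 1, 0.224 without knockdown replicate 2, 0.076 without control replicate 1 and 0.215 without control replicate 2 (limma). ITGA6 shares exon bases with 3 antisense genes: 174 with AC078883.2 (2.66% of its exon length), 125 with ITGA6-AS1 (1.91%) and 52 with AC078883.1. ITGA6-AS1 was at 6.79 and 8.23 RPKM in knockdown and 13.9 and 15.7 RPKM in control libraries. The sources used here do not say whether counting used strand, so reads from the shared bases cannot be told apart. The same limit holds for ITGAV, which shares 203 exon bases (2.47%) with the antisense gene AC017101.1. Smaller overlaps with genes on the opposite strand exist for ITGA5 (48 bases, 0.633%), ITGB1 (42 bases, 0.699%) and ITGB8 (98 bases, 0.647%).

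ITGA3 (ENSG00000005884), the other main laminin-binding alpha chain, averaged 182 ± 14.7 RPKM after knockdown and 159.9 ± 16.5 RPKM in control (SD, n = 2 each). Its groups overlapped, and the log2 fold change of 0.18 ± 0.17 did not pass (SE; limma adjusted p = 0.407). ITGA5 (ENSG00000161638), the fibronectin receptor chain, was at 10.7 and 11.6 RPKM in knockdown and 10.8 and 13.1 RPKM in control libraries. Its groups also overlapped (log2 fold change −0.09 ± 0.18, SE; limma adjusted p = 0.727).

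Among the 4 beta chains tested, ITGB5 alone passed on the values as deposited. ITGB5 (ENSG00000082781), an alpha v partner that binds vitronectin, was at 9.66 and 10.0 RPKM in knockdown libraries, against 12.3 and 15.2 RPKM in control libraries. The groups did not overlap, and the control libraries differed more from each other than the knockdown libraries did. The mean was 9.83 ± 0.243 RPKM after knockdown and 13.7 ± 2.02 RPKM in control (SD, n = 2 each), 1.40-fold lower (log2 fold change −0.46 ± 0.18, SE; limma adjusted p = 0.029). This call was also lost in each fit that left out a library: adjusted p = 0.403 and 0.319 without knockdown replicates 1 and 2, and 0.062 and 0.279 without control replicates 1 and 2 (limma).

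ITGB1 (ENSG00000150093), the common partner chain, was at 113 and 124 RPKM in knockdown libraries and at 88.6 and 103 RPKM in control libraries. The groups did not overlap, but the log2 fold change of 0.30 ± 0.17 did not pass (SE; limma adjusted p = 0.15). ITGB3 (ENSG00000259207), an alpha v partner best known as the vitronectin receptor chain, was at 1.40 and 1.61 RPKM in knockdown libraries, against 0.89 and 1.05 RPKM in control libraries. Here too the groups did not overlap, and the log2 fold change of 0.45 ± 0.20 did not pass (SE; limma adjusted p = 0.0666). Of the exon bases of ITGB3, 51.6% are shared with the gene ENSG00000259753 on the same strand, so how the authors' counting divided those reads affects its level, and the value is uncertain.

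ITGB4 (ENSG00000132470), the hemidesmosome chain with an unusually long tail, was at 37.1 and 40.6 RPKM in knockdown and 37.4 and 42.9 RPKM in control libraries. Its groups overlapped. Its log2 fold change, −0.04 ± 0.17 (SE; limma adjusted p = 0.871), turned to 0.03 after either rescaling of the libraries. ITGB8 (ENSG00000105855), a partner of alpha v that takes part in TGF-beta activation, was at 0.36 and 0.367 RPKM in knockdown libraries and 0.274 and 0.29 RPKM in control libraries, with about 162 and 165 reads against about 174 and 184. Its groups did not overlap. In a limma fit without the filter its log2 fold change was 0.14 ± 0.06 (SE; adjusted p = 0.271).

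Part of the spread between the libraries of a group was common to all genes. When the libraries were rescaled by the median ratio over genes, the median SE over all tested genes was 0.05, against 0.18 as deposited. ITGA3, ITGB1 and ITGB3 then passed as well (log2 fold changes 0.26, 0.38 and 0.50, limma adjusted p = 0.000708, 0.000473 and 0.00672), which gave 4 members higher, 3 lower and 2 not past the test. On that scale 30.8% of all tested genes were called higher and 30.2% lower, 61.0% in all, and 50.4% of all calls were upward, against 40.3% as deposited. ITGAV, ITGA2, ITGA6 and ITGB5 stayed past the test (limma adjusted p = 0.000297, 0.000358, 0.000456 and 0.00796). ITGA5 and ITGB4 did not pass on either scale. The fits that left out 1 library used the values as deposited, without rescaling. In them the log2 fold change ran from −0.614 to −0.399 for ITGA6 and from −0.6 to −0.31 for ITGB5.

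**Figure D2:**
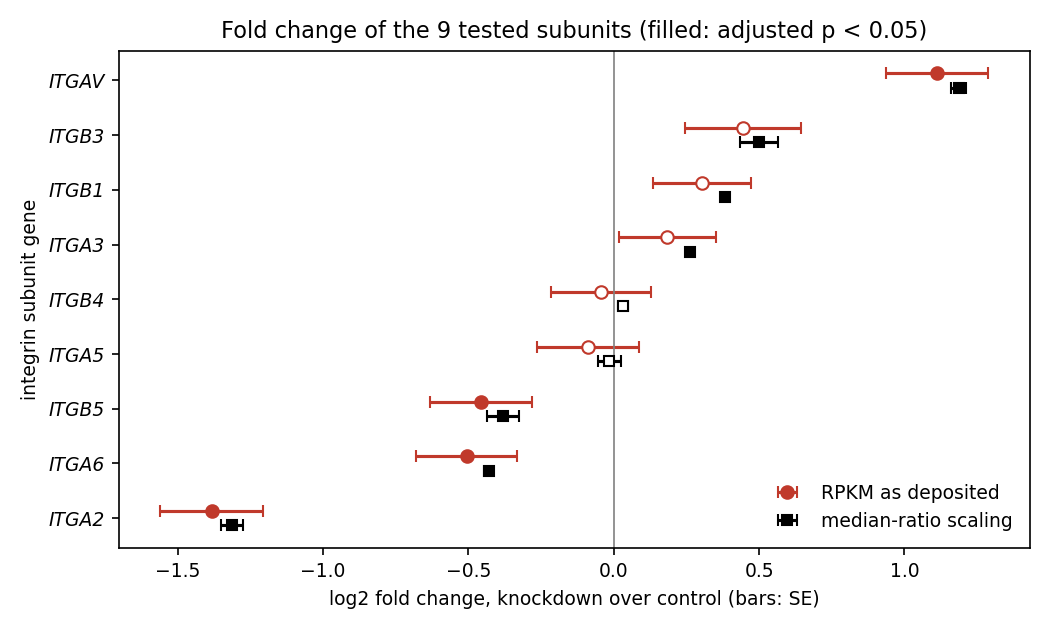
Log2 fold change, knockdown over control, of the 9 tested subunits, with SE bars, as deposited (red circles) and after median-ratio scaling (black squares), filled where the limma adjusted p was below 0.05. ITGAV lies at 1.11 and ITGA2 at −1.38 as deposited, and the scaled values have the smaller bars.

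Ratios of 2 subunits within a library do not depend on that library's depth. They were formed for 9 pairs whose proteins are known to pair, and they describe transcripts, not dimers at the cell surface. The ratio of ITGA2 to ITGB1 was 0.0235 and 0.0228 in knockdown libraries, against 0.0835 and 0.0828 in control libraries, 3.59-fold lower. The ratio of ITGA6 to ITGB1 was 0.341 and 0.345 in knockdown and 0.606 and 0.604 in control libraries, 1.76-fold lower. Both differences are larger than those of the alpha levels alone, since ITGB1 itself lay higher in both knockdown libraries than in either control library. The ratio of ITGAV to ITGB1 was 0.151 and 0.155 in knockdown and 0.086 and 0.0832 in control libraries, 1.81-fold higher. The ratios of ITGA3 and ITGA5 to ITGB1 were 1.09-fold and 1.32-fold lower.

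Each alpha v partner among the members lay lower relative to ITGAV after knockdown, whichever way its own level lay. The ratio of ITGB5 to ITGAV was 0.566 and 0.521 in knockdown libraries, against 1.62 and 1.76 in control libraries, 3.11-fold lower, so ITGB5 was the higher of the pair in control cells and the lower in knockdown cells. The ratio of ITGB3 to ITGAV was 1.44-fold lower and that of ITGB8 to ITGAV 1.73-fold lower. The ratio of ITGB4 to ITGA6 was 0.966 and 0.947 in knockdown and 0.697 and 0.687 in control libraries, 1.38-fold higher. The 2 groups did not overlap in any of the 9 ratios. Across all tested genes, 86.6% of ratios to ITGB1, 87.5% of ratios to ITGA6 and 97.0% of ratios to ITGAV did not overlap either, so it is the sizes that differ between pairs. With 2 against 2 libraries an exact two-sided permutation test cannot go below 0.333, and none was run.

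**Figure D3:**
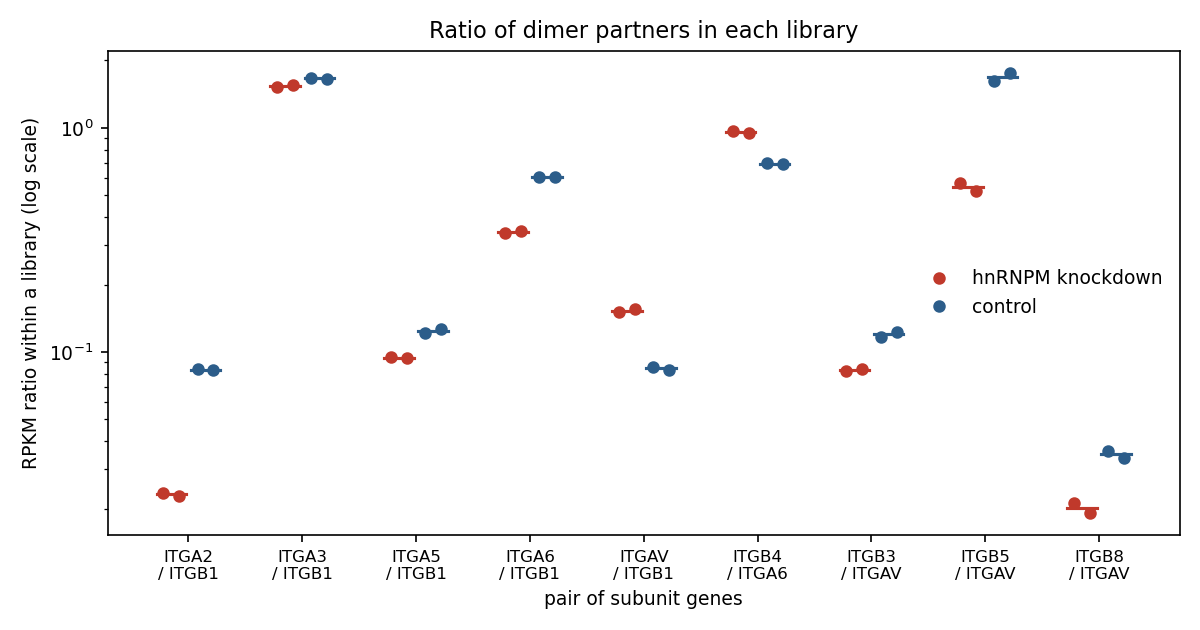
RPKM ratio of 2 partner genes within each library, on a log axis, 1 point per library with a bar at the group mean, hnRNPM knockdown left of control. ITGA2 over ITGB1 lies near 0.0232 after knockdown and 0.0832 in control, and ITGB5 over ITGAV crosses 1 between the groups.

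The makeup of the alpha transcripts differed between the groups, while their sums overlapped. The 5 alpha members summed to 254 ± 20.2 RPKM after knockdown and 246 ± 25.8 RPKM in control (SD, n = 2 each). ITGA3 made up 71.3% and 71.5% of that sum in knockdown libraries, against 65.1% and 64.9% in control libraries. ITGA6 made up 16.0% in each knockdown library and 23.6% in each control library. ITGAV made up 7.10% and 7.15% after knockdown, against 3.35% and 3.25% in control. ITGA2 made up 1.10% and 1.06%, against 3.25% and 3.24%. In the control libraries the alpha v and alpha 2 transcripts thus held like shares, and in the knockdown libraries ITGAV held the larger one. The 4 beta partners of ITGAV among the members were summed in the same way. ITGB1 made up 90.8% and 91.2% of that sum in knockdown and 86.8% and 86.2% in control libraries. ITGB5 made up 7.78% and 7.35% against 12.1% and 12.6%. ITGB1 also pairs with the other alpha members, so its share does not describe alpha v dimers. The values are relative within a library and come from bulk RNA, so a change in every cell and a change in the number of cells that use a gene cannot be told apart.

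**Figure D4:**
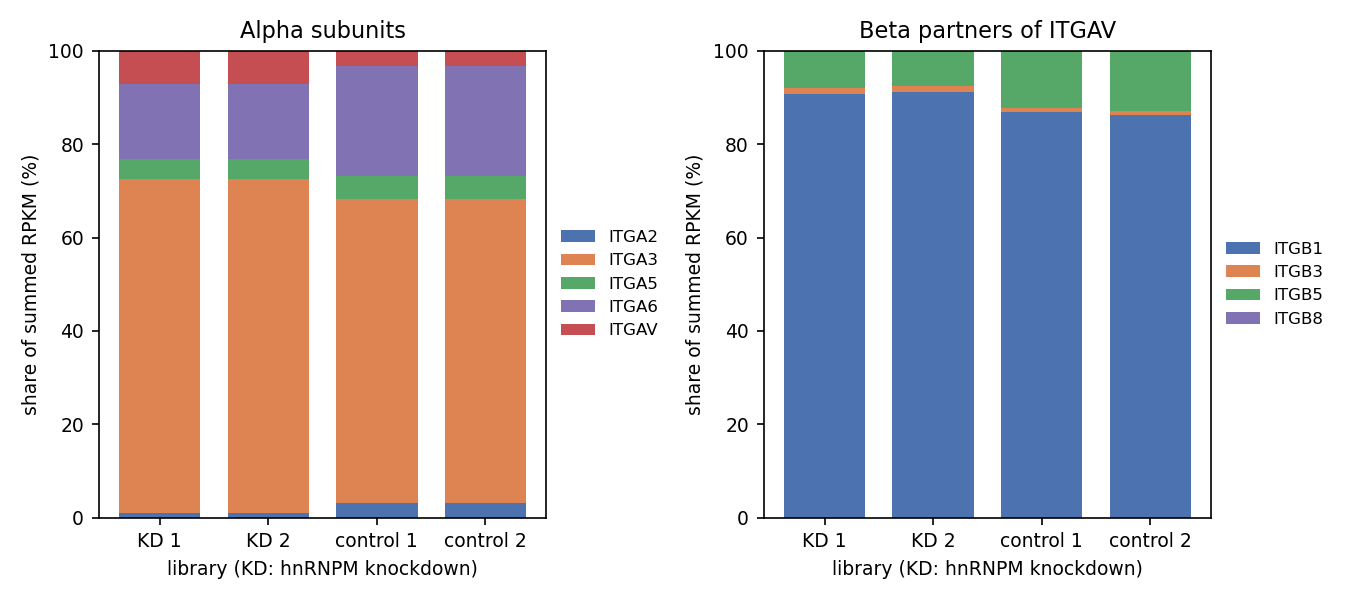
Share of the summed RPKM, in percent, held by each of the 5 alpha subunits (left) and by each of the 4 beta partners of ITGAV among the members (right). Each library has 1 bar, with knockdown (KD) left of control. ITGAV holds about 7.13% of the alpha sum after knockdown and 3.30% in control, and the ITGA6 share is smaller after knockdown.

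Few other integrin genes were expressed. Of 16 further subunits listed, 15 were in the table and 13 of these had a mean below 1 RPKM, among them ITGA4 at 0 in all 4 libraries. ITGAE, the chain that pairs with beta 7 to bind E-cadherin, fell to 3.51 ± 0.482 RPKM, against 4.89 ± 0.542 RPKM in control (SD, n = 2 each; log2 fold change −0.43, limma adjusted p = 0.0438), a call lost in each fit without 1 library (adjusted p from 0.0892 to 0.553, limma). ITGA1, the other collagen-binding alpha chain with a value above the filter, was at 1.46 and 1.68 RPKM in knockdown and 1.19 and 1.41 RPKM in control libraries (log2 fold change 0.20, limma adjusted p = 0.446; 0.0309 after median-ratio scaling). ITGAE passed after that scaling too (limma adjusted p = 0.0101).

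Genes for matrix ligands of these integrins changed in both directions. The list held 37 genes, of which the table had 36 and the test took 29. Among those 29, 13 rose, 7 fell and 9 were not past the test, and their median log2 fold change was 0.30 against −0.07 over all tested genes. Over all tested genes 14.7% were called higher and 21.8% lower, so the downward calls in the list are near the background. After median-ratio scaling 17 were higher and 9 lower, against 30.8% and 30.2% of all genes. On the values as deposited, fewer were called higher in each fit without 1 library. Fewer were also called lower, except without control replicate 1, where the downward count was unchanged. EDIL3, an RGD protein bound by alpha v integrins, rose 4.18-fold to 33.4 ± 2.42 RPKM, against 7.99 ± 0.785 RPKM in control (SD, n = 2 each; limma adjusted p = 7.8e-28). THBS1, coding for thrombospondin 1, rose 2.78-fold to 240.4 ± 18.2 RPKM, against 86.4 ± 8.57 RPKM in control (limma adjusted p = 1.02e-16). The type I collagen chains COL1A1 and COL1A2, ligands of the alpha 2 beta 1 receptor, were 2.56-fold and 14.9-fold higher, COL1A2 at 2.97 and 3.31 RPKM in knockdown against 0.189 and 0.232 RPKM in control libraries.

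The genes that fell included the laminin chains LAMA3, LAMA4, LAMB1 and LAMB3 and the latent TGF-beta binding proteins LTBP1 and LTBP4, named here after their values were seen. Their families did not move as one: LTBP3 rose 2.01-fold (limma adjusted p = 0.000189), and LAMB2, LAMC1 and LTBP2, also named after their values were seen, did not pass. LAMB2 was 1.30-fold higher and LAMC1 1.11-fold lower, and both passed after median-ratio scaling (limma adjusted p = 0.000733 and 0.0258). LAMA3, LAMB1, LAMB3 and LTBP1 passed after that scaling too (limma adjusted p = 0.00381, 0.00135, 0.00035 and 0.00221). LAMA3 and LAMB3, which code for chains of laminins bound by the alpha 3 beta 1 and alpha 6 beta 4 receptors, were 2.07-fold and 1.67-fold lower. LAMB3 passed in 1 of the 4 fits without 1 library (limma adjusted p from 0.0314 to 0.156), as did LAMB1 (0.045 to 0.308), and LAMA3 and LTBP1 passed in 3 each. LTBP1, which anchors latent TGF-beta in the matrix, was 1.88-fold lower (1.96 and 2.39 RPKM in knockdown against 3.86 and 4.31 RPKM in control libraries). FN1, the fibronectin gene, was at 58.5 and 64.4 RPKM in knockdown and 47.4 and 53.7 RPKM in control libraries and did not pass (limma adjusted p = 0.196; 0.000714 after median-ratio scaling). VTN and SPP1, coding for vitronectin and osteopontin, lay below the filter, VTN at 0.451 and 0.591 RPKM in knockdown and 0.088 and 0.044 RPKM in control libraries.

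The cytoplasmic adhesion complex was covered by 46 genes, of which the table had 42 and the test took 39. Among those 39, 7 rose, 9 fell and 23 were not past the test, and the median log2 fold change was 0.07, against −0.07 over all tested genes. On the values as deposited, those 16 calls are near the background of 36.4% called over all tested genes. After median-ratio scaling 22 were higher, 14 lower and 3 not past the test, which turns the balance. On that scale 30.8% of all genes were called higher and 30.2% lower, 61.0% in all, so the upward calls then lay above the background. The counts fell to 2 higher and 4 lower without knockdown replicate 1, 2 and 4 without knockdown replicate 2, 1 and 7 without control replicate 1, and 3 and 4 without control replicate 2. The paxillin relatives LPXN (leupaxin) and TGFB1I1 (Hic-5) fell 4.58-fold and 2.08-fold, LPXN to 1.37 and 1.56 RPKM, against 6.04 and 7.35 RPKM in control libraries. Paxillin itself, PXN, did not pass (27.9 and 30.7 RPKM in knockdown, 26.2 and 30.4 RPKM in control libraries). NEDD9, a scaffold of the p130Cas family, rose 4.69-fold, to 2.01 and 2.33 RPKM, against 0.436 and 0.491 RPKM in control libraries. DOCK1, a Rac activator downstream of that family, fell 2.02-fold.

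Genes for talin 1, kindlin-2 and other core adhesion proteins differed among themselves. TLN1, coding for talin 1, was at 51.6 and 57.3 RPKM in knockdown and 50.3 and 57.6 RPKM in control libraries (limma adjusted p = 0.956). FERMT2, coding for kindlin-2, rose 1.58-fold, to 16.4 and 18.5 RPKM against 10.4 and 11.7 RPKM in control libraries (limma adjusted p = 0.00148), but passed in 0 of the 4 fits without 1 library (adjusted p from 0.0522 to 0.234). ILK, the integrin-linked pseudokinase, fell 1.70-fold, to 25.8 and 29.2 RPKM against 43.4 and 50.1 RPKM (limma adjusted p = 0.000108), and passed in 1 of those 4 fits (adjusted p from 0.0307 to 0.156). PTK2, coding for focal adhesion kinase, and VCL, coding for vinculin, were 1.20-fold higher each and did not pass (limma adjusted p = 0.262 and 0.217; 0.00213 and 0.000714 after median-ratio scaling). FERMT2 and ILK passed after that scaling too (limma adjusted p = 0.000488 and 0.000348).

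Membrane partners and trafficking genes of integrins made a list of 30, of which the table had 29 and the test took 26. Among those 26, 6 rose, 4 fell and 16 were not past the test, with a median log2 fold change of −0.04, against −0.07 over all tested genes. On the values as deposited, the 10 calls are near the background of 36.4%. After median-ratio scaling 11 were higher, 10 lower and 5 not past the test. On that scale 30.8% of all genes were called higher and 30.2% lower, 61.0% in all, so a larger part of the list was called than of all genes. The counts were 4 higher and 2 lower without knockdown replicate 1, 3 and 2 without knockdown replicate 2, 3 and 4 without control replicate 1, and 4 and 2 without control replicate 2. CLIC3, which takes part in returning active integrins from late endosomes, rose 15.8-fold, to 8.21 and 8.56 RPKM against 0.512 and 0.548 RPKM in control libraries. RAB11FIP1, which couples alpha 5 beta 1 to RAB11 recycling, rose 3.95-fold, to 6.55 and 7.21 RPKM against 1.62 and 1.86 RPKM. The co-receptor gene SDC1 (syndecan-1) fell 2.50-fold and the tetraspanin gene CD82 fell 2.18-fold. CD151, the tetraspanin bound to alpha 3 and alpha 6 chains, was at 52.2 and 57.2 RPKM in knockdown and 46.9 and 53.6 RPKM in control libraries and did not pass (limma adjusted p = 0.612; 0.00196 after median-ratio scaling).

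**Figure D5:**
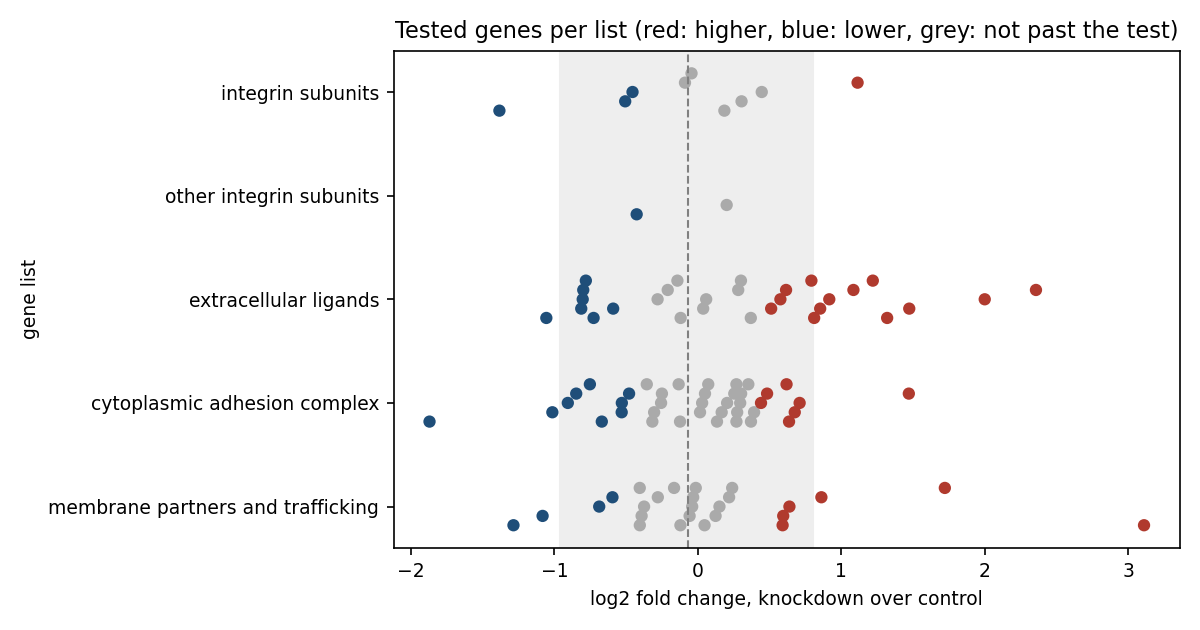
Log2 fold change, knockdown over control, of the tested genes of the integrin subunits and of 4 lists, 1 point per gene, red where called higher, blue where called lower and grey where not past the test. The shaded band runs from the 5th to the 95th percentile of all tested genes (−0.96 to 0.80) and the dashed line is their median, −0.07; ITGA2 and ITGAV are the only subunits outside the band.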

How the data were processed

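RNA-seq of 4 LM2 libraries was deposited by the authors as 1 table of RPKM values per Ensembl gene. Bowtie 0.12.7 and the build hg19 are named, per the submitters' processing notes. Counting program, strand use and read total are not given in the sources here. All columns were used (0 unused). Symbols for 32172 of 36525 gene IDs came from a current gene table. GENCODE 29, of another build, gave only exon lengths, exon overlaps and principal starts. Read totals were estimated from the steps between low values, for description only. Libraries of a group differed slightly more than counting error (mean chi-square per gene 1.34 for knockdown and 1.35 for control) and stayed separate.

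Genes averaging at least 1 RPKM were tested on log2(RPKM + 0.5) by limma 3.58.1 (R 4.3.3) on group alone (empirical Bayes with a trend, Benjamini-Hochberg over all genes, threshold 0.05), after a test on simulated data. This scale understates the change of low genes. In this fit, on the values as deposited, limma found no spread of variance between genes beyond the trend, so its very small p-values rest on a shared variance. That statement does not cover the rescaled or unfiltered fits. Plain fold values are ratios of mean RPKM, and ratio folds are geometric. Named genes were the members, 12 fixed genes, the 4 smallest p per list, and genes stated as chosen after their values were seen. The members and lists were chosen with earlier results of these data known. Alternatives were 2 pseudocounts, 2 filters, 2 scalings, no trend, a replicate block and leaving out each library. Some list members were not analysed or are not reported here.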

Additional observations from a re-analysis of the deposited data

How the results depend on the processing

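Over all genes, the counts after knockdown were 2000 higher and 2964 lower. They became 262 and 255 without a filter, 1047 and 1321 when the filter was 5 RPKM, 4192 higher with median-ratio scaling and 4170 higher with upper-quartile scaling. Leaving out 1 library gave 759 to 1158 higher and 1057 to 2007 lower. Of the integrin subunits, 1 was higher and 3 lower. Both scalings gave 4 higher, and no filter gave 0 higher and 1 lower (ITGA2), where ITGAV had a limma adjusted p of 0.0531. Leaving out any 1 library left 1 higher (ITGAV) and 1 lower (ITGA2). ITGB5 also failed without a variance trend (limma adjusted p = 0.0626). The log2 fold change of ITGB4 was 0.032 with median-ratio scaling, 0.0301 with upper-quartile scaling, 0.032 with a replicate block and that scaling, and −0.142 to 0.0535 with 1 library left out. With 1 library left out, ITGA5 ranged from −0.228 to 0.0483, TLN1 from −0.0816 to 0.112 and PXN from −0.0538 to 0.153; TLN1 and PXN passed only with a rescaling of the libraries (limma adjusted p = 0.00937 and 0.00704 with the median ratio). Replicate numbers are shared between groups, but same-numbered libraries hardly deviated together gene by gene (r = 0.0307 across 13627 genes). That correlation cannot see a shift common to all genes, and the summed RPKM was higher in replicate 2 in both groups. No label says whether same-numbered libraries were paired, so pairing cannot be settled here. With the replicate block, 3109 genes were higher, 4 subunits were higher (3856 and 4 with median-ratio scaling added), and 3 subunits were lower. The cause of these changes was not tested. Depth limits ITGB3 and ITGB8 most, with about 162 to 209 reads per library.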
